A study of Mus musculus with 2 samples.

Results

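To examine the matrix and adhesion genes of breast cancer cells after astragalin (AS), 51 genes were taken from the RNA-sequencing table of 4T1 cells, out of 14197 genes in all. They were picked by symbol alone, as collagen chains (Col, a number, a, a number), laminin chains (Lama, Lamb and Lamc), integrin subunits (Itga and Itgb) and the matrix glycoproteins Fn1, Tnc, Thbs1, Spp1 and Sparc. 4T1 is a murine mammary carcinoma line, labelled wild type, and AS is a plant flavonoid. One library came from 4T1 cells given 20 μM AS and 1 from 4T1 cells given the vehicle, each over 24 h. With 1 library per condition no difference below has a replicate check, no p-value is given, and every interval covers counting error only. The 51 genes were 20 collagen chains, 7 laminin chains, 17 integrin subunits, the 5 glycoproteins, and 2 genes that only share a name stem, Itgb1bp1 and Itgb3bp. GENCODE M21 holds 91 protein-coding symbols that fit the rule, and the other 40 (24 collagens, 4 laminins, 9 integrin subunits and 3 name matches) were not analysed here.

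Collagens are trimers of chains wound into a triple helix. The fibrillar types build the stroma, whereas type IV collagen and the laminins, which are trimers of an α, a β and a γ chain, build the sheet-like basement membrane under epithelial cells. Type VII collagen forms the anchoring fibrils that tie this sheet to the stroma, and laminin-332 sits at the same junction. Integrins are α and β subunit pairs that span the cell membrane, with α3 and α6 pairs binding laminins, α1 and α2 pairs binding collagens, and α5 and αv pairs binding the RGD motif of fibronectin and osteopontin. In breast cancer, these genes are known for their part in adhesion, invasion and growth in bone.

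The type IV collagen chain genes lie in head-to-head pairs, so that the 2 genes of a pair start next to each other on opposite strands. In GENCODE M21 (GRCm38), Col4a1 (chromosome 8, 11198423 to 11312826, minus strand) and Col4a2 (11312805 to 11449287, plus strand) share 22 bases at their starts. Col4a6 (chromosome X, 141165403 to 141474076, minus strand) and Col4a5 (141475385 to 141689234, plus strand) lie 1308 bases apart. The bases before 4 starts are given for the 2 genes of the X-linked pair, for Col7a1, the abundant collagen with the largest difference, and for Tnc, the glycoprotein with the largest difference. The windows of Col4a5 (chrX:141475169-141475384, plus strand), Col4a6 (chrX:141474077-141474326, minus strand), Col7a1 (chr9:108953336-108953585, plus strand) and Tnc (chr4:64047016-64047265, minus strand) come from RefSeq on GRCm38.p6 and hold no annotated exon. Capitals mark the letters GGGCGG of a GC box, the letters of a CCAAT box or the letters TATAAA of a TATA box, searched on both strands, and no 2 marked motifs overlap.
Col4a5: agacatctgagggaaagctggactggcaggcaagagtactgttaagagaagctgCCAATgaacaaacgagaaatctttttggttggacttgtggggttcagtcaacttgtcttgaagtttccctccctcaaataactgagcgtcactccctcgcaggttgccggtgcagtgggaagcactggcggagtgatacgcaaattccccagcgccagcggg
Col4a6: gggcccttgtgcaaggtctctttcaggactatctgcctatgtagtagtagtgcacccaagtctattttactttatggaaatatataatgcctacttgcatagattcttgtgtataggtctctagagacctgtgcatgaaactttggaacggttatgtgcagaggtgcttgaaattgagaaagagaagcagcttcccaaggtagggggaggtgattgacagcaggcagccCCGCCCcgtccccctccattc
Col7a1: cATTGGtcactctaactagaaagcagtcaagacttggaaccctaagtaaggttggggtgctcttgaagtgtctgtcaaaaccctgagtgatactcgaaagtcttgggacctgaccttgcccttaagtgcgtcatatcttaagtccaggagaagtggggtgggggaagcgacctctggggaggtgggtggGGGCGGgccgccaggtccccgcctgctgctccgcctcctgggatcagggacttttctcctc
Tnc: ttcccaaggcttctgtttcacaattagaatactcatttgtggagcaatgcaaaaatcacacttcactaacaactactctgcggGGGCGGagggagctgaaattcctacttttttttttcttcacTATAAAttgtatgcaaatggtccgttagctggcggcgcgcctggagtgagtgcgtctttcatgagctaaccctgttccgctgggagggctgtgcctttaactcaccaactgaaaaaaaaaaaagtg

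Promoter windows were found for 37 of the 51 genes (43 windows of 250 bases before a start). A GC box was present in 51.2% of these windows and in 32.7% of all 32851 windows of the same length. A CCAAT box was present in 25.6% and 33.8%, and a TATA box in 11.6% and 12.4%. The 32851 windows were not limited to genes of the RNA-sequencing table, whereas the 51 genes all come from it. These shares thus compare unlike sets, and whether any difference belongs to matrix and adhesion genes was not tested. Of the printed windows, that of Tnc held a TATA box and a GC box, that of Col7a1 a GC box and a CCAAT box, that of Col4a6 a GC box, and that of Col4a5 a CCAAT box. The Col4a5 window is printed as 216 bases, up to its first annotated exon, and its full 250 bases also hold 1 GC box. A match describes the letters of a window and is not a shown binding site.

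The library sizes behind the table were 44909683 reads for AS and 50820728 for the vehicle. Levels were given by the authors as RPKM, the reads of a gene divided by its exon length and by the size of the library, and the whole reads of all 51 genes could be worked back from them. The 51 genes took 1.102% of the AS reads and 1.08% of the vehicle reads. The 4T1 label was checked against 9 epithelial markers, of which 8 were in the table and Krt5 was not. These 8 ranged from 14.1 to 902 RPKM with the vehicle and from 12.7 to 707 RPKM with AS. Of these, 7 were lower with AS (median log2 ratio of the 8 markers -0.43) and Cdh1, the gene of E-cadherin, was higher (84.6 and 95.5 RPKM). Of the markers of other cells, 0 of 5 endothelial, 1 of 6 fibroblast (Pdgfra, 4.16 RPKM with the vehicle and 4.24 with AS) and 2 of 5 leukocyte genes (Ptprc at 0.114 and 0.116 RPKM, Cd68 at 28.1 and 24.0 RPKM) were in the table. The part of these marker differences in the values below was not tested. In bulk RNA, fewer cells that express a gene and less RNA of it per cell cannot be told apart.

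The matrix and adhesion genes differed between the libraries about as much as the genes of the table at large. The log2 ratio of AS to vehicle was taken with 0.1 RPKM added to both, and genes beyond 1 in either direction were called. Of the 51 genes, 0 were called, while 0.972% of all genes in the table were. At a lower limit of about 1.5-fold, 1 of the 51 was higher (Col20a1, 0.78) and 1 was lower (Tnc, -0.68), and 3.56% of all genes were higher and 2.01% lower by as much (5.57% in either direction). On the reads alone, without the added 0.1 RPKM, the rare genes Col6a3 (1.24), Itga1 (0.94), Itgae (-0.80) and Col4a6 (-0.68) passed this limit too. The share of all genes past it on the reads alone was not taken. The median log2 ratio of the 51 genes was 0.05 and that of all genes was 0.07. The median size of the log2 ratio, without its sign, was 0.181 for the 51 genes and 0.173 for all genes. Of the 51 genes, 28 were higher with AS and 23 lower, and 22 lay above the median of all genes. Of all genes, 60.9% were higher. The 25 of them that averaged 10 RPKM or more ranged from -0.36 to 0.27, with a median size of difference of 0.145, and the 4585 genes of the table at such levels had the same median size, 0.145. The 18 genes with a mean below 1 RPKM ranged from -0.68 to 0.78, so both values beyond 1.5-fold with 0.1 RPKM added were those of genes with few reads.

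**Figure D1:**
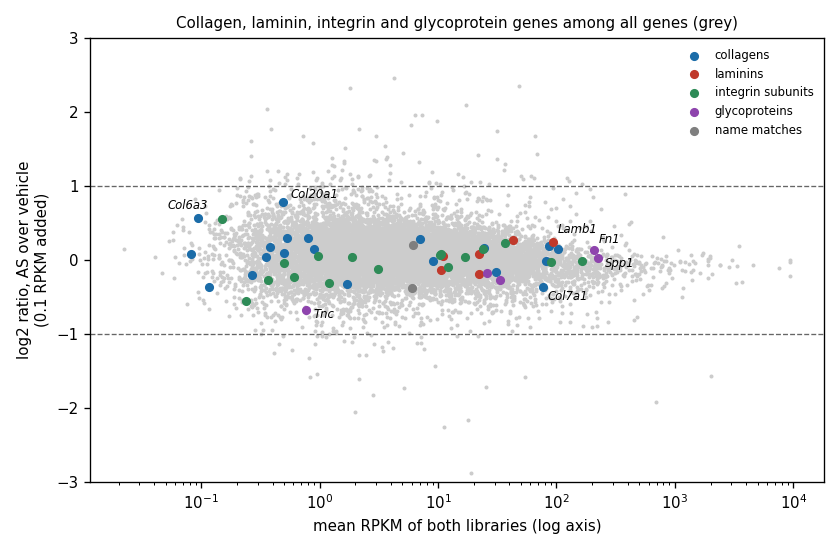
Log2 ratio of AS to vehicle (0.1 RPKM added to both, vertical) against the mean RPKM of both libraries (log axis, horizontal) for all genes of the table in grey and for 50 of the 51 genes in colour by class. Dashed lines mark log2 ratios of -1 and 1, no coloured point lies beyond them, and 4 grey genes lie outside the vertical range of -3 to 3.

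The collagens of 4T1 cells were mainly those of the basement membrane zone. Col4a1, Col7a1, Col18a1 and Col4a2 together held 81.8% of the summed collagen RPKM with the vehicle and 81.7% with AS. The 8 fibrillar chains, which make the collagens of stroma, bone and cartilage, held 2.89% and 2.95%, most of it from Col5a1. Over the 20 collagens the median log2 ratio was 0.12, with 13 higher and 7 lower, and summed RPKM was 423 with the vehicle and 427 with AS.

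Col4a1 encodes the α1 chain of type IV collagen, the network of all basement membranes. It had 96.9 RPKM with the vehicle and 107 with AS, from 36743 and 35907 reads. The log2 ratio was 0.15 (95% Clopper-Pearson interval of the reads 0.12 to 0.17). Col4a2 encodes the α2 chain, which joins the α1 chain in the same trimer. It had 80.6 RPKM with the vehicle and 92.2 with AS, a log2 ratio of 0.19 (0.17 to 0.22). Both genes of this pair were thus slightly higher with AS, and the ratio of Col4a1 to Col4a2 was 1.202 with the vehicle and 1.16 with AS. The X-linked pair was far lower and uneven. Col4a5, whose chain is known from the kidney filter, had 6.31 RPKM with the vehicle and 7.70 with AS (log2 ratio 0.28). Col4a6, the gene next to it, had 0.143 and 0.0894 RPKM from only 58 and 32 reads, and its log2 ratio of -0.36 had 0.1 RPKM added to levels about as low. On the reads alone it was -0.68 (-1.35 to -0.033).

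Col7a1 encodes the chain of the anchoring fibrils, at chr9:108953586-108984875 (plus strand). It had 86.2 RPKM with the vehicle and 67.2 with AS, from 45061 and 31058 reads. The log2 ratio of -0.36 (-0.38 to -0.34) was the lowest of the 25 genes with at least 10 RPKM on average. By RPKM, Col7a1 was number 603 of all genes with the vehicle and number 765 with AS. Col18a1, whose chain carries endostatin at its end, was nearly level, with 82.5 RPKM with the vehicle and 82.0 with AS (-0.0087, -0.033 to 0.015). Col16a1, a fibril-associated collagen, had 32.5 and 29.1 RPKM (-0.16), and Col8a1, a short-chain network collagen, had 23.1 and 25.8 RPKM (0.16).

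Among the fibrillar chains, Col5a1, which starts type I fibrils, had 9.04 RPKM with the vehicle and 8.95 with AS (log2 ratio -0.015). The other 7 fibrillar chains (Col1a1, Col1a2, Col3a1, Col5a2, Col11a1, Col11a2 and Col27a1) all lay below 1 RPKM in both libraries, at most 0.842 with the vehicle and 0.943 with AS. Col1a1, the main chain of type I collagen, had 0.711 and 0.896 RPKM from 237 and 264 reads, and its log2 ratio of 0.30 had an interval of the reads from 0.08 to 0.59. Col3a1 had 0.461 and 0.590 RPKM (0.30), whereas Col1a2, the partner of Col1a1 in type I collagen, had 0.342 and 0.355 RPKM (0.04). The 2 chains of type I collagen thus had overlapping counting intervals. The remaining chains had log2 ratios of -0.20 (Col27a1) to 0.15 (Col11a2).

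The largest ratios of the collagens came from rare transcripts. Col20a1, a fibril-associated collagen on chromosome 2 from 180986535 to 181018363, had 0.337 RPKM with the vehicle and 0.650 with AS, from 88 and 150 reads. Its log2 ratio was 0.78, and 0.95 on the reads alone (0.56 to 1.34). Col6a3, a chain of the beaded filaments of type VI collagen, had 0.0559 and 0.132 RPKM from 34 and 71 reads. Its log2 ratio was 0.57 with 0.1 RPKM added and 1.24 on the reads alone (0.63 to 1.88), so that the added amount decided whether it was called. Col6a1, which pairs with it in type VI collagen, had a ratio of the other sign, with 1.91 and 1.5 RPKM (-0.33, interval of the reads -0.57 to -0.13). Col12a1, a fibril-associated collagen, lay at 0.349 and 0.409 RPKM (0.18).

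**Figure D2:**
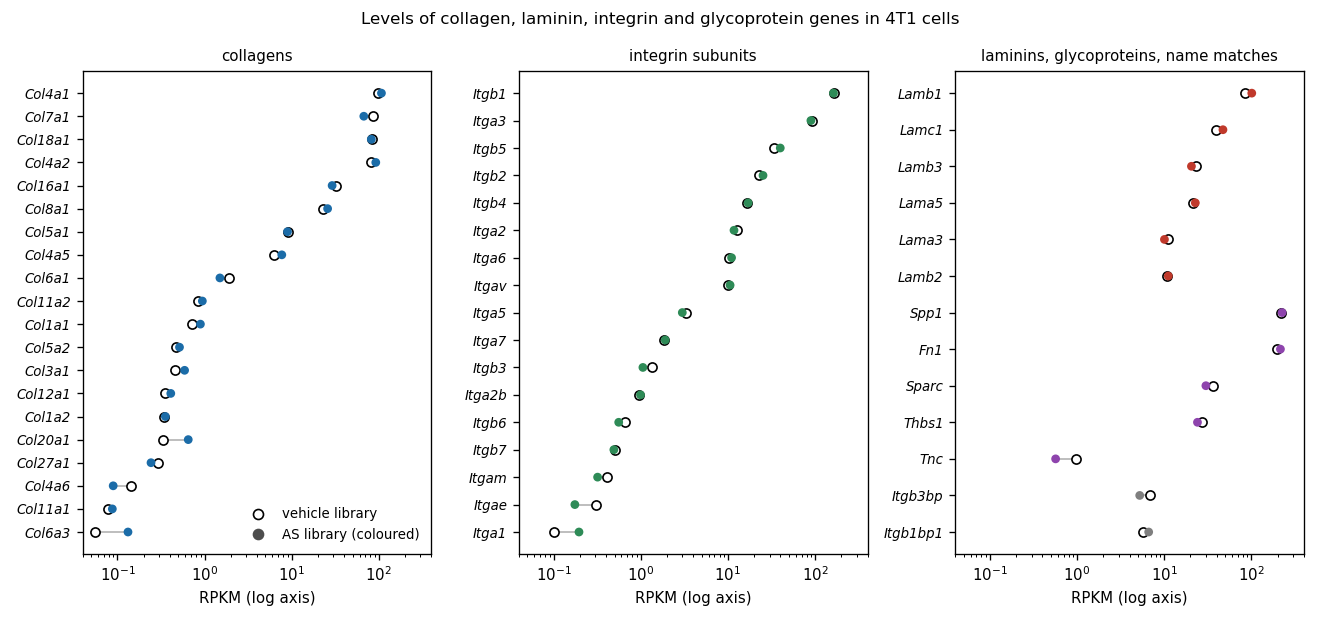
RPKM of 50 of the 51 genes (log axis) in the vehicle library (open circles) and the AS library (filled circles, coloured by class), ordered by vehicle level within each class. The 2 circles of most genes touch, Col20a1, Col6a3, Col4a6, Itga1, Itgae and Tnc are apart, and all of these lie below 1 RPKM.

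The laminin chains did not go 1 way. Lama3 and Lamb3, which encode chains of laminin-332, the laminin of hemidesmosomes, were lower with AS. The 3 chains of laminin-511, the most widespread laminin of adult epithelia, were each higher. The 7 laminin chains in the table all lay at 10 RPKM or above in both libraries, with 4 higher and 3 lower with AS and a median log2 ratio of 0.06. The chains of laminin-511 summed to 146 RPKM with the vehicle and 171 with AS.

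Of laminin-332, Lama3, the α3 chain, had 11.01 RPKM with the vehicle and 10.1 with AS, from 6014 and 4856 reads (log2 ratio -0.13, interval -0.19 to -0.08). Lamb3, the β3 chain, had 23.5 and 20.5 RPKM from 7885 and 6098 reads (-0.19, -0.24 to -0.14). Neither interval held 0 or the median of all genes, and each direction was the same when ratios were centred on that median or reads were scaled by TMM or the upper quartile.

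Of laminin-511, Lama5, the α5 chain, had 21.5 RPKM with the vehicle and 22.8 with AS (0.08, 0.05 to 0.12). Lamb1, the β1 chain, had 85.6 and 101 RPKM from 43161 and 45047 reads (0.24, 0.22 to 0.26). Lamc1, the γ1 chain (chromosome 1, 153218922 to 153332786), had 39.0 and 47.2 RPKM (0.27, 0.24 to 0.31), the highest ratio of the laminins. Lama5 lay close to the median of all genes, and centring on that median left it at 0.02 and the upper quartile at 0.0046. Lamb2, which takes the place of Lamb1 in laminin-521, had 10.7 and 11.1 RPKM (0.06, -0.01 to 0.13), and its sign turned under the other scalings.

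**Figure D3:**
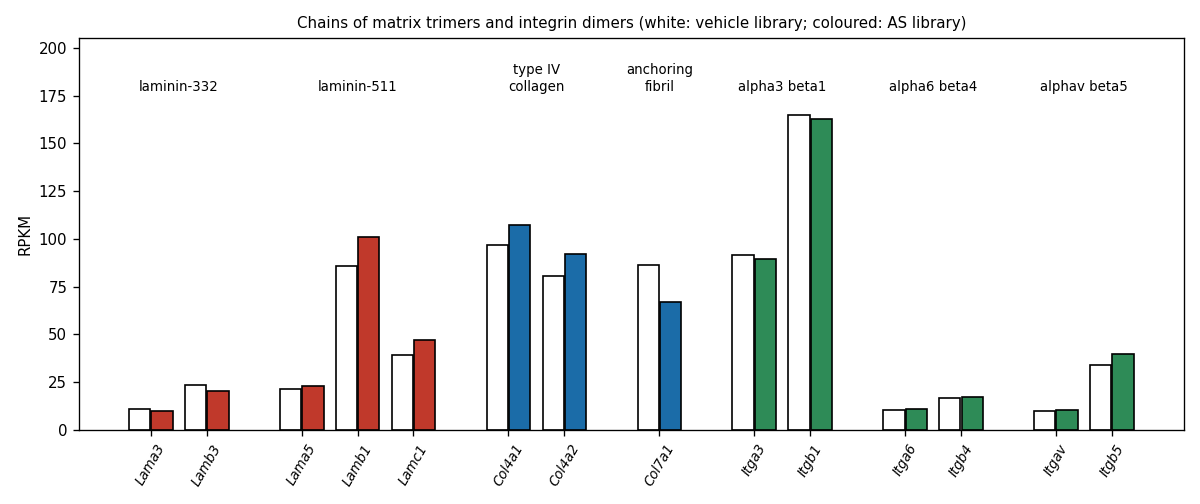
RPKM (vertical, from 0) of chains of 2 laminins, type IV collagen, the anchoring fibril and 3 integrin pairs, with the vehicle library in white and the AS library in colour. Lama3, Lamb3 and Col7a1 are lower with AS, the 3 laminin-511 bars, Col4a1 and Col4a2 are higher, and Itga3 and Itgb1 are nearly level.

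The integrins were led by the laminin-binding pair α3β1 and hardly differed. Itgb1, the β1 subunit shared by most matrix receptors, and Itga3 together held 68.9% of the summed integrin RPKM with the vehicle and 67.0% with AS. Over the 17 subunits the median log2 ratio was -0.019, with 8 higher and 9 lower, and 0 lay beyond 1.5-fold with 0.1 RPKM added. Itgb1 (chromosome 8, 128685654 to 128733200) had 165 RPKM with the vehicle and 163 with AS, from 34173 and 29797 reads. Its log2 ratio was -0.019 (-0.042 to 0.0032). Itga3, the α3 subunit, had 91.3 and 89.5 RPKM (-0.029, -0.055 to -0.0039). Of the 7 partners of β1 among the α subunits in the table, Itga3 made up 70.5% of the RPKM with the vehicle and 70.0% with AS.

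The other laminin receptors were also near level. Itga6, the α6 subunit, had 10.4 RPKM with the vehicle and 11 with AS (0.09), and Itgb4, its partner in hemidesmosomes, had 16.5 and 17.0 RPKM (0.05, -0.0054 to 0.10). Itga7 had 1.84 and 1.90 RPKM (0.05). The ratios of α6β4 thus lay near 0, while those of Lama3 and Lamb3, chains of its ligand laminin-332, lay below 0, and the signs of Itgb4 and Itga7 turned under the other scalings (centring, TMM and the upper quartile). Among collagen receptors, Itga2, the α2 subunit, had 12.6 and 11.7 RPKM (-0.10, -0.16 to -0.04). Itga1, which lies 20995 bases from Itga2 on chromosome 13, was rare and had 0.102 and 0.195 RPKM from 96 and 163 reads. Its log2 ratio was 0.55, and 0.94 on the reads alone (0.57 to 1.32).

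Of the RGD-binding receptors, Itgav, the αv subunit, had 10.1 RPKM with the vehicle and 10.6 with AS (0.07, with a sign that turned under TMM and the upper quartile), and Itga5, the α5 subunit of the classical fibronectin receptor, had 3.26 and 2.99 RPKM (-0.12, -0.27 to 0.02). Itga2b, the platelet αIIb subunit, lay at 0.952 and 0.992 RPKM. Among the β partners of αv, Itgb5 had 33.9 and 39.8 RPKM from 6128 and 6357 reads, a log2 ratio of 0.23 (0.18 to 0.28) that was the highest of the integrins above 1 RPKM. Itgb3, the β3 subunit of the osteoclast receptor αvβ3, had 1.33 and 1.06 RPKM from 399 and 280 reads (-0.31, -0.56 to -0.11). Itgb6, an epithelial subunit, had 0.667 and 0.557 RPKM (-0.22, -0.55 to 0.03). By level the order of these β subunits was Itgb5, Itgb3 and Itgb6 in both libraries, and αvβ8 could not be followed since Itgb8 was not analysed here.

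The integrins of leukocytes were rare except for Itgb2. Itgb2, the β2 subunit, had 22.7 RPKM with the vehicle and 25.3 with AS (0.15, 0.09 to 0.22). Itgam, its αM partner, had 0.407 and 0.319 RPKM from 104 and 72 reads, and 68.7% of its exon bases are shared in the annotation with the same-strand gene Gm49368, so its level is uncertain. Itgae had 0.305 and 0.175 RPKM from 71 and 36 reads (-0.56, and -0.80 on the reads alone, -1.42 to -0.20), and Itgb7, its partner, had 0.504 and 0.490 RPKM (-0.034).

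**Figure D4:**
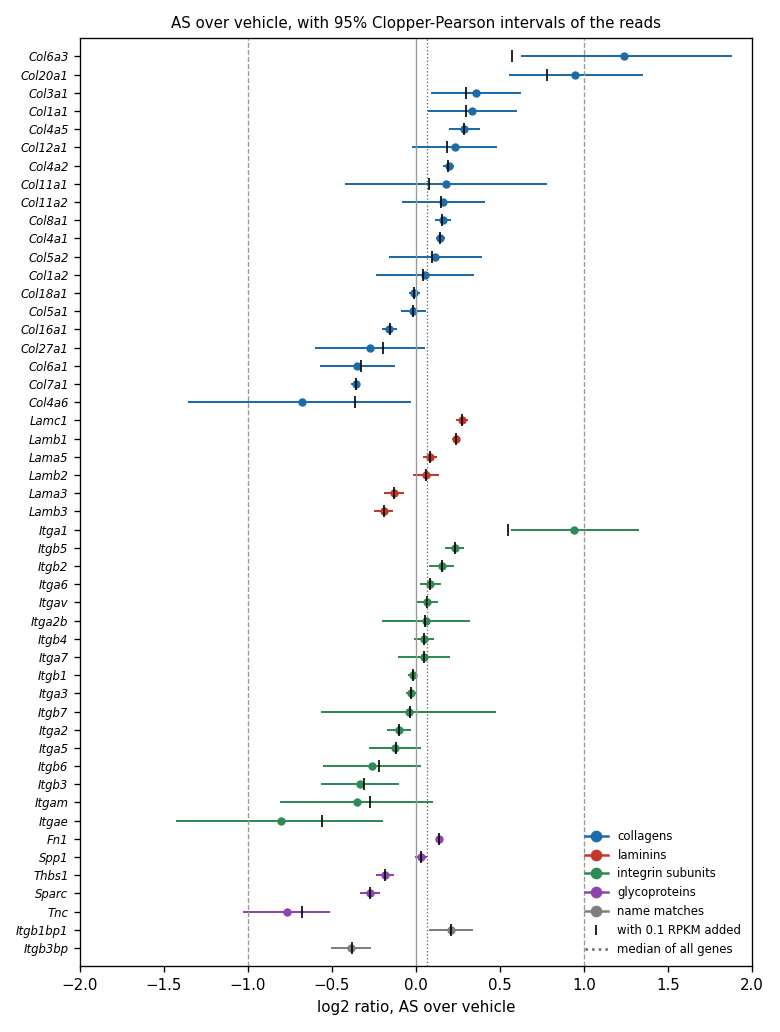
Log2 ratio of AS to vehicle of 50 of the 51 genes from their reads (points) with the 95% Clopper-Pearson interval (lines, counting error only), and the ratio with 0.1 RPKM added (ticks), by class. The laminins split around 0 with narrow intervals, and the widest intervals are those of rare genes such as Col4a6, Col6a3, Col11a1 and Itgae.

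The glycoproteins were led by Spp1 and Fn1, which together held 86.6% of the class RPKM with the vehicle and 89.0% with AS. Spp1, the gene of osteopontin, a secreted ligand of RGD-binding integrins that is abundant in bone, had 221 RPKM with the vehicle and 225 with AS (log2 ratio 0.031, 0.00083 to 0.061). Its sign turned under the other scalings, and 18.8% of its exon bases are shared with the same-strand gene Gm42793. Fn1, the gene of fibronectin (chromosome 1, 71585520 to 71653200), had 196 and 216 RPKM from 116589 and 113204 reads. Its log2 ratio was 0.14 (0.12 to 0.15), and by RPKM it was number 264 of all genes with the vehicle and number 208 with AS. The other 3 glycoproteins, Sparc, Thbs1 and Tnc, were lower with AS. Sparc, a collagen-binding glycoprotein also called osteonectin, had 36.4 and 30.1 RPKM (-0.27, -0.33 to -0.22). Thbs1, the gene of thrombospondin 1, had 27.3 and 24.1 RPKM (-0.18, -0.23 to -0.14). Tnc, the gene of tenascin C (chromosome 4, 63959785 to 64047015), had 0.967 and 0.567 RPKM from 382 and 198 reads. Its log2 ratio of -0.68 was the lowest of the 51 genes with 0.1 RPKM added, and on the reads alone it was -0.77 (-1.02 to -0.52), where Itgae and its 36 to 71 reads lay lower (-0.80). The printed window of Tnc holds both a TATA box and a GC box, and so does the window of Col11a2, whose log2 ratio was 0.15. A link between these letters and the ratios was not tested.

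The 2 genes that share only a name stem code for no integrin subunit. Itgb1bp1, the gene of an adaptor that binds the tail of the β1 subunit, had 5.74 RPKM with the vehicle and 6.64 with AS (0.21). Itgb3bp, a centromere protein gene, had 6.84 and 5.24 RPKM (-0.38, -0.50 to -0.27).

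The enzymes that modify and fold collagens, the partners of the basement membrane, the adhesion machinery at integrin tails and other matrix receptors were compared in the same way. Of 97 such genes, 78 were in the table and 0 lay beyond a log2 ratio of 1, beside 0.972% of all genes. At 1.5-fold with 0.1 RPKM added, 2 were higher and 1 was lower, and the median of the 78 was 0.03.

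Of the collagen processing genes, 28 of 35 were in the table, with a median log2 ratio of -0.05, and 11 were higher and 17 lower. With 0.1 RPKM added, no gene of this list reached 1.5-fold, whereas on RPKM alone Lox and, narrowly, Mia2 did. The following were chosen after their values were seen. P4ha1, P4ha2 and P4ha3, the 3 catalytic subunits of collagen prolyl 4-hydroxylase, which stabilises the triple helix, had log2 ratios of -0.44, -0.52 and -0.42. P4ha3 was rare, with 0.527 RPKM with the vehicle and 0.369 with AS from 84 and 52 reads, and its interval (-1.04 to 0.0024) held 0. P4ha1 had 60.4 RPKM with the vehicle and 44.5 with AS, from 12626 and 8213 reads. Plod2, a collagen lysyl hydroxylase, had 17.5 and 13.1 RPKM (-0.41, -0.48 to -0.35), while Serpinh1, the collagen chaperone HSP47, had 61.8 and 71.5 RPKM (0.21). Low ratios were not limited to hydroxylases, with Pcolce2 at -0.48 and Fkbp14 at -0.45. The other lysyl hydroxylases, Plod1 (-0.11) and Plod3 (-0.04), differed less than Plod2. The highest ratios of the list were those of Mia2, the gene of an export factor of the endoplasmic reticulum, at 9.76 and 14.7 RPKM from 5576 and 7398 reads (0.58), and of Lox, the gene of the collagen cross-linking lysyl oxidase, at 0.247 and 0.391 RPKM from 60 and 84 reads (0.50 with 0.1 RPKM added, interval of the reads 0.17 to 1.17).

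Of the basement membrane partners, 8 of 15 were in the table (median 0.06). Nid1, the gene of nidogen, which links laminin to type IV collagen, had only 0.150 RPKM with the vehicle and 0.327 with AS, from 53 and 102 reads. Its log2 ratio was 0.77 with 0.1 RPKM added (interval of the reads 0.63 to 1.63), and it was the only one of the 8 beyond 1.5-fold. On RPKM alone it lay beyond a log2 ratio of 1, so that the added amount decided whether it was called. Of the integrin adhesion genes, 32 of 34 were in the table (median 0.04), 21 were higher and 11 lower, and 0 lay beyond 1.5-fold with 0.1 RPKM added. Fermt3, with 0.238 RPKM with the vehicle and 0.139 with AS from 70 and 36 reads, passed 1.5-fold on RPKM alone. The share higher, 65.6%, was near the 60.9% of all genes, and 14 of the 32 lay above the median of all genes. Of the other matrix receptors, 10 of 13 were in the table (median 0.12). Ddr2, a receptor tyrosine kinase for fibrillar collagen, had 11.98 RPKM with the vehicle and 19.3 with AS, from 5641 and 8044 reads (0.69, 0.64 to 0.74). Its relative Ddr1, chosen after its value was seen, had 9.34 and 9.07 RPKM (-0.04). Sdc3, a syndecan, had 1.60 and 1.004 RPKM (-0.62, interval of the reads -0.89 to -0.45).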

How the data were processed

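RNA of 4T1 cells was sequenced from stranded mRNA libraries, 1 with AS and 1 with the vehicle. The submitters' processing notes list fastp 0.23.4, STAR 2.5.3a, featureCounts and the build GRCh38, a human build, although the table lists mouse symbols. The gene annotation, the strand setting and the filter on low genes are not given in the sources used here. The authors deposited RPKM per library, which were used, and a mean log2 CPM. The mean log2 CPM gave the exon length of 1395 genes, and the annotation gave that of 12716. Their log2 fold change, p-value and FDR columns were not used.

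RPKM times the exon length of GENCODE M21 (GRCm38) was whole, within 0.01 reads or a millionth of the reads, at a single library size for 94.2% of the 13502 genes with 1 entry there. Whole reads were so recovered for 14111 of 14197 genes (99.4%). The recovery was tested on simulated data. For Itga6, Itga7 and Col5a1 the length came from the mean log2 CPM. Reads on genes that overlap may be lost or shared. Of the 51 genes, 6 share exon bases with another gene on the same strand and 12 on the opposite strand. The values of 1 of the 51 genes are not reported here.

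With 1 library per condition, no count model was used. Log2 ratios of AS to vehicle had 0.1 RPKM added, and genes beyond 1 were called, or of at least 1.5-fold, the lower limit of the study's methods. Each ratio of reads, scaled to library size, has an exact Clopper-Pearson interval at 95%. Reads without molecular identifiers are not independent molecules. The gene lists, the members and the limits were chosen with earlier results of these data known. Genes were named if they passed 1.5-fold, were among the 4 highest of a class by vehicle RPKM, or encode a chain of a named laminin or integrin, and others are said to be chosen by value or given to account for all 51. The alternatives were 0 or 1 RPKM added, a mean of at least 1 RPKM, centring on the median, TMM or upper-quartile scaling of the reads with 0.5 added, the limit of 1.5-fold and removal of the 2 name matches. Chosen after seeing the data were a minimum of 1000 reads and scaling of the reads to library size. Python 3.11, numpy 2.4.6 and scipy 1.17.1 were used.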

Additional observations from a re-analysis of the deposited data

How the results depend on the processing

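The count of called genes among the 51 was 1, Col6a3 (higher), in place of 0 with 0 RPKM added and with the recovered reads scaled by TMM, by the upper quartile or to library size, and it was 2 at a limit of 1.5-fold. Among the 78 related genes it was 1, Nid1 (higher), under the same 4 settings and 3 at 1.5-fold. The other settings gave 0 for both. Over all genes, 138 were called, and 227 with 0 RPKM added, 212 with TMM, 214 with the upper quartile, 225 with reads scaled to library size and 54 with 1 RPKM added.

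The median of the 5 glycoproteins, -0.18, became -0.075 without Tnc (a mean of at least 1 RPKM, or at least 1000 reads), -0.25 when centred on the median of all genes, -0.25 with TMM and -0.26 with the upper quartile. The laminin median, 0.06, became -0.020 with the upper quartile and -0.0065 and -0.0085 when centred or with TMM. The collagen median, 0.12, was -0.0087 over the 9 collagens with at least 1 RPKM, and the integrin median, -0.019, was 0.05 over 11 subunits at such levels. Centring turned the sign of 6 of the 51 genes, and TMM and the upper quartile of 7 each. They were Col1a2, Spp1, Itga2b, Itga7, Itgb4 and Lamb2, with Itgav added under the last 2. The log2 ratios of these genes lay close above 0, from 0.031 (Spp1) to 0.068 (Itgav). Centring shifts the ratio of every gene by -0.07, which carries these genes except Itgav past 0. TMM shifts the ratio of the reads by -0.07 and the upper quartile by -0.08, which carries all of them past 0. These 2 settings do not add 0.1 RPKM, so rare genes moved by other amounts from their main ratios. With TMM, Col6a3 went from 0.57 to 1.16 and Col4a6 from -0.36 to -0.74. No paired analysis was possible because each condition has 1 library. With 1 library per condition, depth limits only the rare genes, while the spread between cultures is not known.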

Other observations

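Itgb2 had 22.7 RPKM with the vehicle and 25.3 with AS, whereas Itgam, its only α partner in the table, had 0.407 and 0.319 RPKM, a level that is uncertain since 68.7% of its exon bases are shared with the same-strand gene Gm49368. Ptprc, the general leukocyte marker CD45, had 0.114 and 0.116 RPKM. Itgal and Itgax were not analysed here.

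Some neighbouring genes of the matrix and adhesion classes had ratios of the same sign and others did not. Of the pairs reported here, 5 lie less than 100 kb apart. Col4a1 and Col4a2 (0.15 and 0.19) and Col3a1 and Col5a2 (0.30 and 0.10) had log2 ratios of 1 sign. Itga2 and Itga1 (-0.10 and 0.55), Col4a6 and Col4a5 (-0.36 and 0.28) and Col1a1 and Itga3 (0.30 and -0.029) had opposite signs. Each of these pairs holds a rare gene or a ratio near 0. Col4a6 had 58 reads with the vehicle and 32 with AS, and Itga1 had 96 and 163. Of all genes, 60.9% were higher with AS, and how often genes that are not neighbours share a sign was not tested.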
